A study of Mus musculus with 20 samples.

Results

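The interferon response genes described here are 34 mouse genes chosen by name, from a list set with earlier results of these mice known: transcription factors, RNA sensors and antiviral or immune effectors whose transcription interferon raises. They are 34 of the 33119 genes in the deposited count table, and 34 of the 34 were among the 21724 genes that passed the filter on low counts. Poly(A) RNA of whole hippocampus was sequenced from 4 groups of 5 mice, all 16 months old. The males were numbered S154 to S158 (hAPOE3) and S174 to S178 (hAPOE4), the females S144 to S148 (hAPOE3) and S164 to S168 (hAPOE4). All 20 mice were on the C57BL/6 background and carried no wild-type mouse Apoe allele, since hAPOE3 and hAPOE4 mice are homozygous targeted replacements in which human APOE3 or APOE4, the common allele and the allele that raises the risk of late-onset Alzheimer's disease, stands in place of mouse Apoe. The animals came from a commercial breeder, and nothing in the labels says whether mice of a group shared a litter or cage. Before dissection the mice were perfused with saline, and the hippocampus was taken whole, so every value is a mixture over cell types in which fewer cells of a type and less RNA per cell cannot be told apart.

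Type I interferons bind the receptor IFNAR, whose kinases JAK1 and TYK2 phosphorylate transcription factors of the STAT family. STAT2 joins IRF9 in a complex that binds the interferon-stimulated response element in front of target genes, while type II interferon acts mainly through another element, the gamma-activated site. In brain the response is carried by microglia, endothelium, astrocytes and neurons, it is strong at the choroid plexus and other borders, and a low tonic level is usual without infection.

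Between 35778879 and 52520279 counts were assigned per mouse (median 42963466), and single members were covered by 14 to 3651 counts in a mouse. Values are CPM, counts scaled to a common library size after TMM normalisation. The APOE contrast itself has no check in these counts: the mouse Apoe row held 37.4 to 98.9 CPM over the 20 mice, and reads of the human allele were assigned to mouse transcripts only. Markers of neurons (8 of 8 genes), hippocampal neurons (8 of 8), microglia (15 of 15), astrocytes (8 of 8) and oligodendrocytes (8 of 8) passed the filter. The libraries differed in what else they held. The summed level of 12 choroid plexus genes ran from 80.3 to 6659 CPM, and that of 7 border macrophage genes from 5.24 to 31.1 CPM. Of 11 oocyte genes, 7 passed the filter. The sum over all 11 was 85.9 to 170 CPM in 4 of the 5 hAPOE4 males (S175 to S178) against 2.17 to 4.37 CPM in the other 16 mice.

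The members differed widely in level (see the plot of levels per kilobase). Per kilobase of exon, Ifi27, a mitochondrial membrane protein strongly induced by interferon, was highest at 32.8 ± 10.2 CPM per kb (SD, n = 20). Next stood Ifitm3, which blocks virus entry at endosomes, at 17.9 ± 6.88 CPM per kb, and Lgals3bp, a secreted galectin-binding glycoprotein, at 8.98 ± 5.71 CPM per kb. The low end held Oas2, an oligoadenylate synthetase, at 0.445 ± 0.163 CPM per kb and Ifi44, a gene of unclear function, at 0.213 ± 0.0782 CPM per kb. Of the 33 neighbouring pairs in this order, only 3 were separated by more than the larger of their SDs over the 20 mice (Ifi27 from Ifitm3, Ifitm3 from Lgals3bp, and Oas2 from Ifi44), so the order within the middle of the list is not resolved. In plain CPM the median member had a mean of 5.86 CPM against 9.18 CPM for all genes tested, and 15 of the 34 members were below 5 CPM on average.

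**Figure D1:**
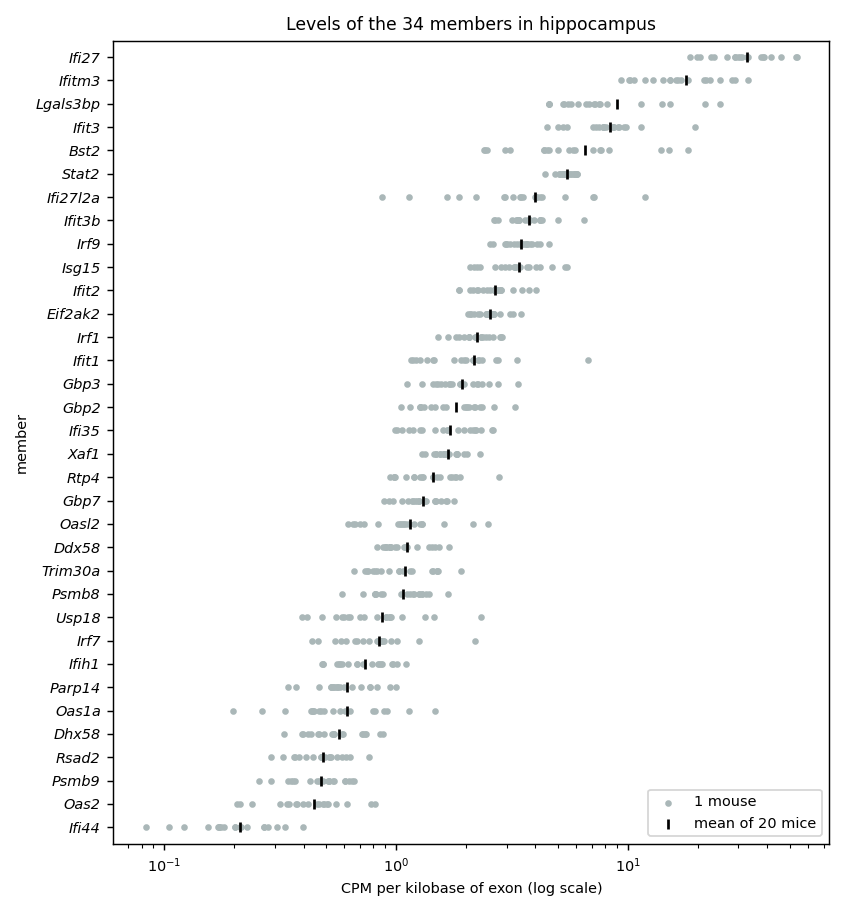
CPM per kilobase of exon (log scale) for the 34 members, ordered by their mean. Grey points are single mice and the black bar is the mean of 20 mice. Ifi27 leads at 32.8 CPM per kb and Ifi44 closes the list at 0.213 CPM per kb, and most neighbours overlap.

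Some levels share reads with near copies. Of the 75-base windows in the transcripts of Ifit3, 41.1% also occur in another gene, chiefly Ifit3b, and 35.7% of those of Ifit3b occur in Ifit3. For Oas1a, 47.6% of windows are shared with Oas1g, for Gbp7 11.3%, for Rtp4 10.5% and for Ifit1 5.19%. Salmon divides such reads by a model, so the split between Ifit3 and Ifit3b, and between Oas1a and Oas1g, is uncertain. Whether the libraries kept strand is not given in the sources used here, and Irf1, Irf7, Dhx58, Eif2ak2, Usp18, Gbp2, Psmb8, Psmb9 and Ifi35 overlap a gene on the other strand. On chromosome 7, which holds the replaced Apoe locus, Trim30a lies 84.7 Mb, Ifitm3 121 Mb and Irf7 122 Mb from it. Ifi27 (chromosome 12, 103434211 to 103440239, plus strand) and Ifi27l2a (103442167 to 103443680, minus strand; GRCm38) are neighbours.

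The promoters of 27 members were given in the RefSeq sequences (GRCm38.p6, 250 bases before to 50 after the start). The core of the interferon-stimulated response element, searched as GAAANNGAAA on both strands with overlapping matches counted, was found in 16 of these 27 members (59.3%) against 3.99% of 27025 genes with a window. The gamma-activated site, searched as TTCNNNGAA, which reads the same on both strands, was found in 9 of the 27 (33.3%) against 9.55% of all genes. Ifi27, Usp18, Oas2, Ifi27l2a, Rtp4, Dhx58 and Parp14 were not among the windows. The 6 stretches of 200 bases below are printed 5′ to 3′ on the gene's strand, with the response element core in capitals. They belong to members whose values in every mouse are given with the results, and set genes with several copies of the core beside Lgals3bp, which has 0 in its window. Isg15 (chr4:156200819-156201018, minus strand) held 3 overlapping cores at -78, -72 and -66, counted to the leftmost base of the core with the start as 0. Ifit1 (chr19:34640689-34640888, plus), Ifit3 (chr19:34583329-34583528, plus) and Ifit3b (chr19:34607757-34607956, plus) held 2 each, at -104 and -85, -156 and -122, and -188 and -154. The stretches of Ifit3 and Ifit3b, which share the spacing, were equal at 82.1% of aligned bases without gaps. Bst2 (chr8:71537473-71537672, minus) held 2 overlapping cores at -130 and -124, and Lgals3bp lies at chr11:118401960-118402159 (minus).
Isg15: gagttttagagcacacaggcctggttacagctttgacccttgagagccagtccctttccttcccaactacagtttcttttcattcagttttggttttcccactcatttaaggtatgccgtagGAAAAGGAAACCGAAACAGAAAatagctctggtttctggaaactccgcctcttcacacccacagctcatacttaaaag
Ifit1: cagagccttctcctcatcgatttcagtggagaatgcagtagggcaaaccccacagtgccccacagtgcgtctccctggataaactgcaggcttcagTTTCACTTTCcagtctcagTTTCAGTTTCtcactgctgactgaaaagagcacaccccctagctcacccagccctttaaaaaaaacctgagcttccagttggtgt
Ifit3: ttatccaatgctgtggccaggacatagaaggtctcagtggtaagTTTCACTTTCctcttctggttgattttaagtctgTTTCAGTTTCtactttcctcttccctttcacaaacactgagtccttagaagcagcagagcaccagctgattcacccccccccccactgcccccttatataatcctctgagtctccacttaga
Ifit3b: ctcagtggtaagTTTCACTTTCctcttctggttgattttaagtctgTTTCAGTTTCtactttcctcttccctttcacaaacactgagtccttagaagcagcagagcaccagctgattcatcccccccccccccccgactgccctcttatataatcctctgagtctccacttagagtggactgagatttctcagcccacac
Bst2: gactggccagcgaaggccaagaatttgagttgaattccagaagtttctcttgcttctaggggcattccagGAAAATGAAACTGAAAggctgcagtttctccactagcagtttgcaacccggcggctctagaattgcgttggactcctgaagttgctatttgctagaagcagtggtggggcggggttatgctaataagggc
Lgals3bp: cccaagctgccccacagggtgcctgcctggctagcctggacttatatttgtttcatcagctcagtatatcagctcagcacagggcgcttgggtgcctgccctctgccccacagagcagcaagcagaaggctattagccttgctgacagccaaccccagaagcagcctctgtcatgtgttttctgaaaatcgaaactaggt

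Across the groups the members were lowest in hAPOE3 males and similar in hAPOE4 males and hAPOE4 females. The hAPOE3 males had the lowest group mean for 30 of the 34 members, where they had it for 28.1% of all genes tested. The highest mean fell to hAPOE4 females for 16 members and to hAPOE4 males for 15, against 24.5% and 23.2% of all genes tested. The heat map of members by mouse shows single animals with high values in many members. In S176, an hAPOE4 male, 17 members were at their highest of all 20 mice and 27 at the highest of its group, where 23.3% of all genes tested were highest in S176 within that group. S144, an hAPOE3 female, was the highest of its group for 24 members, against 16.7% of all genes tested. In a fit without both mice, a choice made after the data were seen, 29 of 34 members were still higher in hAPOE4 than in hAPOE3 males. In that fit 28 were higher in hAPOE3 females than in hAPOE3 males. The median log2 fold changes were 0.19 and 0.07. The mean of the centred log2 CPM of the 34 members, called the member score below, was 0.77 in S176, 0.48 in S165, 0.45 in S144 and 0.37 in S166, and it was lowest in S154 at -0.55.

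**Figure D2:**
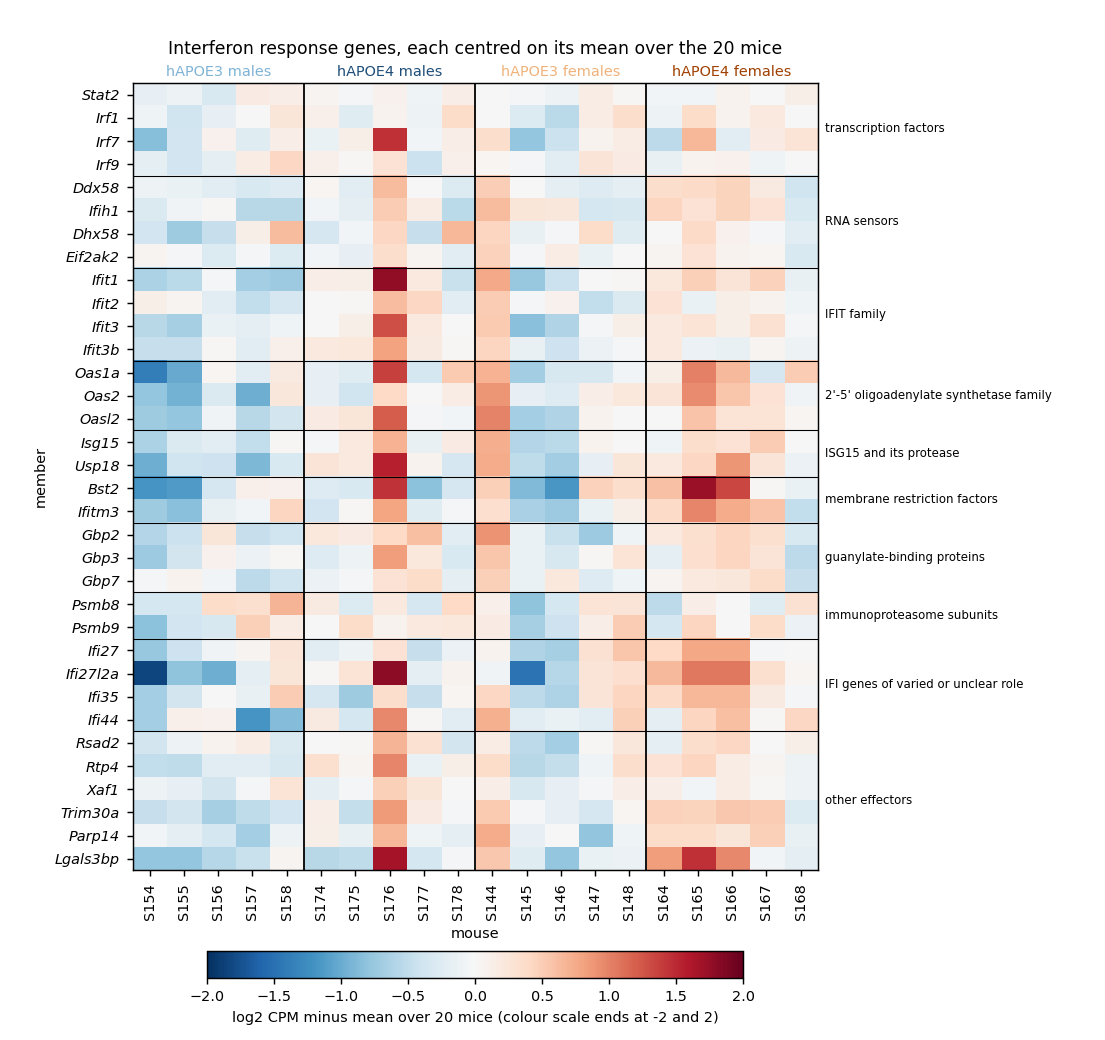
Each row is a member, grouped by role, and each column a mouse, grouped by genotype and sex. Colour gives log2 CPM minus the mean of that member over the 20 mice, with the colour scale ending at -2 and 2. Mouse S176 is above the mean in 34 of 34 members, S144 in 33 and S154 in 2.

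The first question was whether hAPOE4 and hAPOE3 males differed. In males, 32 of the 34 members were higher in hAPOE4, with a median log2 fold change of 0.36, which is 1.29-fold, against a median of 0.00 with 50.3% of genes higher for all genes tested. None passed the adjusted threshold: 0 of 34 had an adjusted p under 0.05 by edgeR's quasi-likelihood test, where 0.621% of all genes passed, and 12 of 34 had an unadjusted p under 0.05, all higher in hAPOE4, against 9.06% of all genes. By DESeq2 and limma-trend 0 members passed as well, where 0.974% and 0.488% of all genes did, with 13 and 11 at an unadjusted p under 0.05 against 8.07% and 9.74%. The list was drawn up with earlier results of these mice known, so the count is no independent evidence of a direction. One mouse bears on the size: without S176 the median was 0.19 and 6 members had an unadjusted p under 0.05, against 7.81% of all genes in that fit.

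Usp18 had the smallest p of the members in males. The protein, which removes the ubiquitin-like ISG15 from proteins and dampens the interferon receptor, had its transcript at 1.10, 1.66, 1.63, 1.15 and 1.77 CPM in hAPOE3 males and at 2.65, 2.53, 6.52, 2.31 and 1.73 CPM in hAPOE4 males, here and below in order of mouse number. All hAPOE4 males but S178 were above every hAPOE3 male, and S176 stood far above its group. The log2 fold change was 1.11 (SE 0.33, 95% CI 0.43 to 1.79), with an adjusted p of 0.207 by edgeR, and 0.65 without S176. Isg15 itself, a ubiquitin-like modifier that is conjugated to proteins, stood at 1.58, 2.03, 2.14, 1.75 and 2.53 CPM in hAPOE3 males and at 2.45, 2.83, 4.04, 2.24 and 2.78 CPM in hAPOE4 males. The groups overlapped in S158 alone, which was above 2 of the hAPOE4 males, and the log2 fold change was 0.51 (SE 0.23, edgeR adjusted p = 0.511), and 0.36 without S176.

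The IFIT family, which binds viral RNA and blocks its translation, was higher in hAPOE4 males for 4 of 4 members, 3 of them at an unadjusted p under 0.05. Ifit3 stood at 9.51, 8.75, 12.7, 12.3 and 13.1 CPM in hAPOE3 males and at 14.1, 15.0, 33.96, 16.0 and 13.8 CPM in hAPOE4 males. The groups did not overlap, as for 3 of the 34 members (Ifit3, Oasl2 and Rtp4) where 1.44% of all genes did not overlap, and S176 had more than any other mouse. The log2 fold change was 0.72 (SE 0.25, edgeR adjusted p = 0.330), and 0.38 without S176. Ifit3b stood at 5.30, 5.35, 7.50, 6.34 and 7.85 CPM in hAPOE3 males and at 8.41, 8.54, 12.9, 8.37 and 7.43 CPM in hAPOE4 males, with S178 below the 2 highest hAPOE3 males, and a log2 fold change of 0.50 (SE 0.17, edgeR adjusted p = 0.318), or 0.34 without S176. Ifit1 stood at 3.37, 3.61, 5.09, 3.24 and 3.16 CPM in hAPOE3 males and at 5.74, 5.71, 18.0, 6.03 and 3.83 CPM in hAPOE4 males. All hAPOE4 males but S178 were above every hAPOE3 male, S176 by far, and the log2 fold change of 1.09 (SE 0.33) was 0.53 without that mouse.

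Among the oligoadenylate synthetases, whose product activates RNase L, Oasl2 stood at 4.18, 3.98, 6.54, 4.63 and 5.32 CPM in hAPOE3 males and at 7.66, 8.07, 15.9, 6.72 and 6.63 CPM in hAPOE4 males. Every hAPOE4 male exceeded every hAPOE3 male, by little in S177 and S178, with a log2 fold change of 0.87 (SE 0.28, edgeR adjusted p = 0.297), and 0.56 without S176. Oas1a and Oas2 had log2 fold changes of 0.76 (SE 0.38) and 0.50 (SE 0.27), neither at an unadjusted p under 0.05. The effectors of other kinds were higher for 6 of 6, from 0.18 for Xaf1, a promoter of apoptosis, through 0.28 for Rsad2 (viperin) and 0.37 for Parp14, an ADP-ribosyltransferase, to 0.81 for Lgals3bp, which was 0.12 without S176. Rtp4, a chaperone of receptors that also restrains viruses, did not overlap between the groups (2.08 to 2.55 CPM in hAPOE3 and 2.72 to 5.91 CPM in hAPOE4 males), and its log2 fold change of 0.68 was 0.45 without S176. Trim30a, a TRIM-family regulator of innate signalling, stood at 3.11, 3.35, 2.72, 3.01 and 3.29 CPM in hAPOE3 males and at 4.72, 3.08, 7.83, 4.84 and 4.24 CPM in hAPOE4 males. Every hAPOE4 male but S175 exceeded every hAPOE3 male. It had a log2 fold change of 0.68 (SE 0.21, edgeR adjusted p = 0.244), which was 0.45 without S176.

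All 4 transcription factors and all 4 RNA sensors had log2 fold changes above 0 in males, 1 and 0 of them at an unadjusted p under 0.05. Stat2, the partner of IRF9, stood at 28.8, 30.0, 26.0, 36.0 and 35.2 CPM in hAPOE3 males and at 33.4, 31.3, 34.3, 30.4 and 35.5 CPM in hAPOE4 males, and the groups overlapped throughout, with a log2 fold change of 0.08 (95% CI -0.10 to 0.26). Irf9 stood at 16.2, 14.1, 16.1, 20.4 and 24.7 CPM in hAPOE3 males and at 19.7, 18.7, 22.5, 13.7 and 19.9 CPM in hAPOE4 males, again with overlap, and had a log2 fold change of 0.05 (SE 0.14), while Irf1 had 0.12 (SE 0.16). Irf7, which amplifies interferon production and is itself induced, had 0.66 (SE 0.31, unadjusted p = 0.0428 and adjusted p = 0.531 by edgeR), but 8.29 CPM in S176 against 2.71 to 3.27 CPM in the other 4 hAPOE4 males, and 0.23 without S176. Eif2ak2, the RNA-activated kinase that stops translation, stood at 13.5, 12.5, 10.7, 12.7 and 10.7 CPM in hAPOE3 males and at 12.5, 11.5, 16.4, 13.4 and 11.2 CPM in hAPOE4 males, with a log2 fold change of 0.11 (95% CI -0.16 to 0.39). The 4 RNA sensors (Ddx58, Ifih1, Dhx58 and Eif2ak2) ranged from 0.11 to 0.29, none at an unadjusted p under 0.05.

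The immunoproteasome subunits, which cut peptides for presentation, had 1 of 2 members higher in hAPOE4 males. Psmb8 stood at 2.76, 2.74, 4.54, 4.40 and 5.69 CPM in hAPOE3 males and at 4.02, 2.91, 4.04, 2.79 and 4.68 CPM in hAPOE4 males, the lowest log2 fold change of the list at -0.13 (95% CI -0.62 to 0.37), and Psmb9 had 0.29 (SE 0.24). The guanylate-binding proteins, GTPases that attack pathogen-containing vacuoles, were higher for 3 of 3. Gbp7 stood at 7.10, 7.56, 6.90, 5.00 and 5.47 CPM in hAPOE3 males and at 6.66, 7.04, 8.77, 9.27 and 6.34 CPM in hAPOE4 males, with overlap and a log2 fold change of 0.25 (95% CI -0.11 to 0.61), and Gbp2 had the largest of the family at 0.55 (SE 0.25, unadjusted p = 0.0391 and adjusted p = 0.522 by edgeR). Ifi44 had 0.66 (SE 0.30, unadjusted p = 0.0417 by edgeR), and Ifi35 was lower in hAPOE4 males at -0.10 (SE 0.26).

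**Figure D3:**
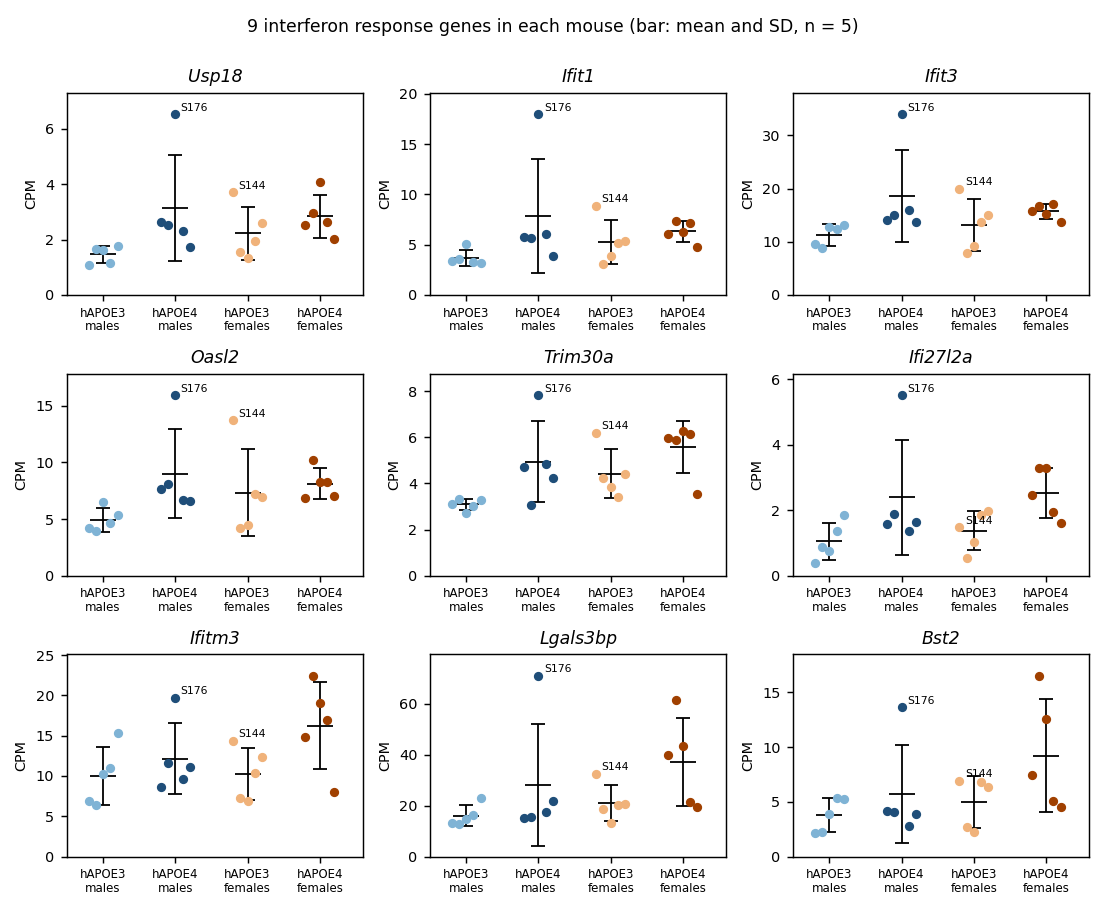
CPM of 9 members in each of the 20 mice, in 4 groups, each axis starting at 0. Points are mice, and the bar is the mean with its SD (n = 5 per group). S176 and S144 are marked by name. In hAPOE4 males S176 is the highest mouse for all 9 members plotted, and 17 of the 34 members are highest in it over the 20 mice.

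In females fewer members stood apart at an unadjusted p. Of the 34 members, 30 were higher in hAPOE4 females, with a median log2 fold change of 0.20 (1.15-fold) against 0.00 for all genes. By edgeR 0 members passed the adjusted threshold, where 0.667% of all genes did, and 1 had an unadjusted p under 0.05 against 10.1% of all genes. By DESeq2 and limma-trend the count was also 0, where 1.03% and 0.585% of all genes passed. Each had 2 members at an unadjusted p under 0.05, against 8.05% and 9.87% of all genes. Groups without overlap were found for 0 members, where 3.27% of all genes had them. Single mice bear on the median: it was 0.37 without S144, with 8 members at an unadjusted p under 0.05 against 12.3% of all genes in that fit, and 0.11, 0.11 and 0.12 without S145, S146 and S165, with 0 such members each. In the last 3 fits 9.89%, 9.47% and 7.52% of all genes had such a p.

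Both membrane restriction factors had log2 fold changes above 0 in females. Ifitm3 stood at 14.4, 7.24, 6.85, 10.3 and 12.3 CPM in hAPOE3 females and at 14.8, 22.4, 19.1, 16.9 and 8.03 CPM in hAPOE4 females. It was high in 4 hAPOE4 females and low in S168, which lay among the low hAPOE3 females, and the log2 fold change was 0.67 (SE 0.29, unadjusted p = 0.0312 and adjusted p = 0.424 by edgeR). In males Ifitm3 stood at 6.94, 6.35, 10.3, 10.9 and 15.3 CPM in hAPOE3 males and at 8.67, 11.6, 19.7, 9.58 and 11.2 CPM in hAPOE4 males, with a log2 fold change of 0.28 (SE 0.29). Bst2, tetherin, which holds budding viruses at the cell surface, had the largest log2 fold change in females at 0.88 (SE 0.45, edgeR adjusted p = 0.543), which was 0.56 without S165. It stood at 6.93, 2.67, 2.20, 6.83 and 6.38 CPM in hAPOE3 females and at 7.47, 16.5, 12.6, 5.04 and 4.52 CPM in hAPOE4 females. S165 and S166 were far above every hAPOE3 female and S164 slightly, while S167 and S168 lay within their range. In males Bst2 stood at 2.17, 2.24, 3.92, 5.34 and 5.26 CPM in hAPOE3 males and at 4.15, 4.03, 13.6, 2.81 and 3.92 CPM in hAPOE4 males. Its log2 fold change of 0.59 (SE 0.46) rested on S176, and it was -0.03 without that mouse.

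Lgals3bp and Ifi27 were higher in S164, S165 and S166 than in the other hAPOE4 females. The choroid plexus genes summed to 4724, 6316 and 6659 CPM in S164, S165 and S166, and to 535 and 104 CPM in S167 and S168. Their part in the values of Lgals3bp and Ifi27 was not tested. Lgals3bp stood at 32.5, 18.8, 12.99, 20.3 and 20.6 CPM in hAPOE3 females and at 39.9, 61.3, 43.3, 21.3 and 19.4 CPM in hAPOE4 females. In males it stood at 12.99, 12.96, 14.9, 16.2 and 23.1 CPM in hAPOE3 males and at 15.2, 15.7, 70.9, 17.4 and 21.7 CPM in hAPOE4 males. In both sexes the hAPOE4 mean was carried by a few animals (S164, S165 and S166, and S176), the rest lying within the range of the hAPOE3 mice, with log2 fold changes of 0.82 (SE 0.39, edgeR adjusted p = 0.495, or 0.56 without S165) in females and 0.81 (SE 0.39, edgeR adjusted p = 0.553) in males. Ifi27 stood at 48.3, 30.2, 29.2, 56.8 and 67.5 CPM in hAPOE3 females and at 60.9, 78.7, 78.3, 44.7 and 45.5 CPM in hAPOE4 females. In males it stood at 27.1, 34.4, 43.8, 48.0 and 55.3 CPM in hAPOE3 males and at 39.2, 42.7, 56.2, 33.4 and 42.4 CPM in hAPOE4 males. S165 and S166 were highest, and the log2 fold changes were 0.41 (SE 0.24) in females and 0.04 (SE 0.24) in males.

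In the IFIT, oligoadenylate synthetase and ISG15 groups 9 of 9 members were higher in hAPOE4 females, 0 of them at an unadjusted p under 0.05. Ifit3 stood at 20.002, 7.82, 9.16, 13.7 and 15.0 CPM in hAPOE3 females and at 15.9, 16.8, 15.2, 17.2 and 13.7 CPM in hAPOE4 females, where S144 exceeded all hAPOE4 females, with a log2 fold change of 0.26 (95% CI -0.25 to 0.77). Oasl2 stood at 13.7, 4.25, 4.48, 7.23 and 6.91 CPM in hAPOE3 females and at 6.85, 10.2, 8.27, 8.25 and 7.02 CPM in hAPOE4 females, again with S144 highest, with 0.15 (95% CI -0.44 to 0.74). Isg15 stood at 4.15, 1.63, 1.68, 2.60 and 2.46 CPM in hAPOE3 females and at 2.33, 3.17, 3.03, 3.56 and 2.46 CPM in hAPOE4 females, with 0.21 (95% CI -0.26 to 0.69). Usp18 stood at 3.71, 1.53, 1.34, 1.96 and 2.60 CPM in hAPOE3 females and at 2.52, 2.95, 4.08, 2.62 and 2.03 CPM in hAPOE4 females, and the log2 fold change was 0.35 (95% CI -0.32 to 1.01). For each of these 4 genes, Ifit3, Oasl2, Isg15 and Usp18, S144 and S148 were above the lowest hAPOE4 female, and S145 and S146 were below it. Ifit1 stood at 8.87, 3.09, 3.88, 5.22 and 5.33 CPM in hAPOE3 females and at 6.07, 7.33, 6.25, 7.19 and 4.73 CPM in hAPOE4 females, with overlap and a log2 fold change of 0.26 (SE 0.33).

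Stat2 stood at 32.5, 31.8, 30.2, 35.7 and 32.8 CPM in hAPOE3 females and at 31.0, 31.1, 33.9, 32.2 and 34.9 CPM in hAPOE4 females, a log2 fold change of 0.00 (95% CI -0.18 to 0.18), and Irf9 stood at 18.9, 18.0, 16.0, 21.9 and 20.7 CPM in hAPOE3 females and at 16.7, 19.3, 19.6, 17.4 and 18.4 CPM in hAPOE4 females, with -0.06 (SE 0.14). Eif2ak2 stood at 17.7, 12.6, 14.4, 11.8 and 12.9 CPM in hAPOE3 females and at 13.5, 15.9, 13.6, 13.3 and 10.4 CPM in hAPOE4 females, with -0.06 (95% CI -0.34 to 0.22). Gbp7 stood at 10.04, 6.59, 8.31, 5.98 and 6.76 CPM in hAPOE3 females and at 7.47, 8.27, 8.40, 9.30 and 5.23 CPM in hAPOE4 females, with 0.04 (95% CI -0.32 to 0.40). The groups overlapped for these 4 genes, and so they did for Psmb8, at 3.78, 1.99, 2.74, 4.26 and 4.24 CPM in hAPOE3 females and at 2.43, 3.88, 3.54, 2.98 and 4.37 CPM in hAPOE4 females, with 0.01 (95% CI -0.48 to 0.51).

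**Figure D4:**
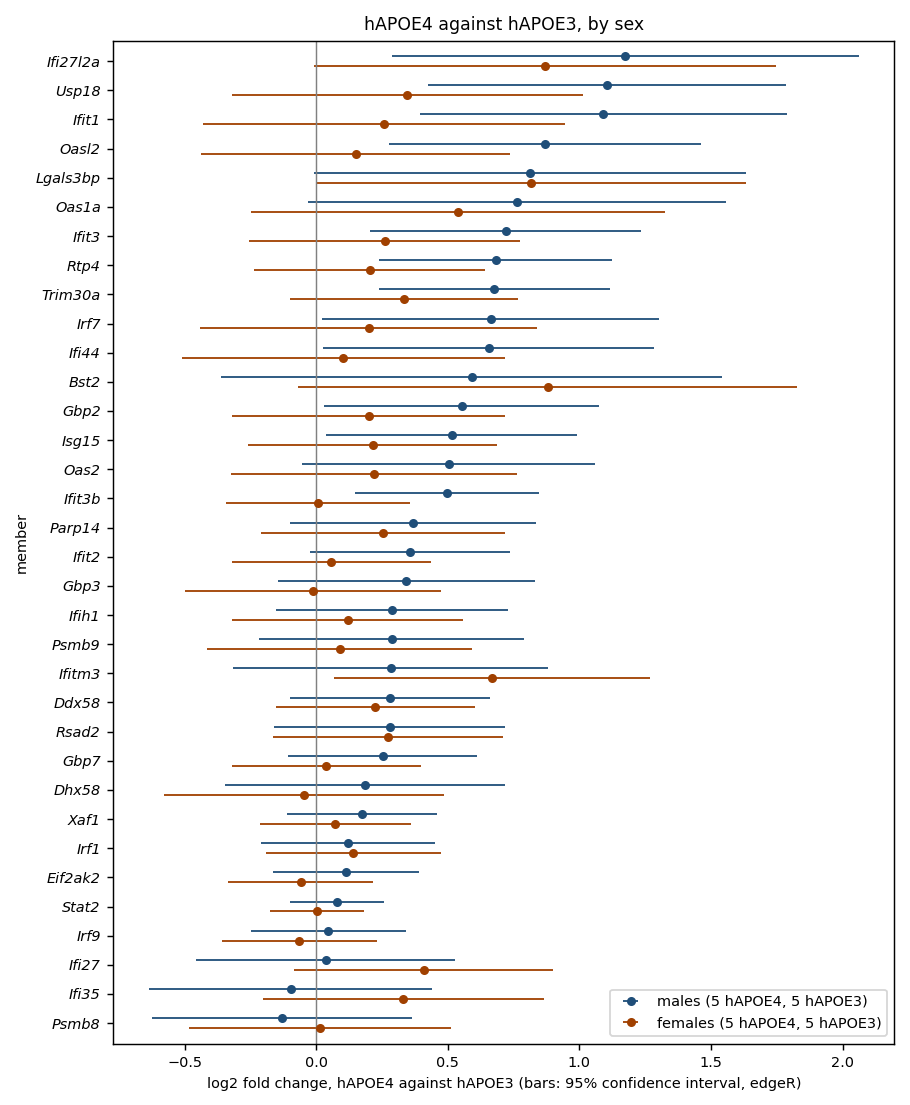
Log2 fold change of hAPOE4 against hAPOE3 for the 34 members in males (blue) and females (brown), ordered by the value in males, with 95% confidence intervals from the edgeR fit over all 20 mice. The line marks 0. In males the values run from -0.13 (Psmb8) to 1.17 (Ifi27l2a), and 27 of 34 members have the larger value in males.

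Across the sexes, 28 members were higher in hAPOE4 in both and 6 had opposite signs, and 27 had the larger log2 fold change in males. Over the 34 members, which share the same 20 libraries and are not independent, the male and female values had a Pearson r of 0.49 and a Spearman rho of 0.50, as a description. The difference between the sexes was itself tested as the interaction. By edgeR 0 of 34 members passed, where 0.184% of all genes did, and 0 had an unadjusted p under 0.05 against 2.54% of all genes, with 0 and 0 also by DESeq2 and by limma-trend, where 0.293% and 0.0737% of all genes passed. By DESeq2 and limma-trend 2.67% and 2.46% of all genes had an unadjusted p under 0.05. A smaller effect in females is therefore not shown for any member. The median interaction was -0.22, with 27 of 34 lower, and it was -0.07 without S176 and -0.07 without S144. Without both mice, a choice made after the data were seen, the median APOE difference was 0.19 in males and 0.37 in females, with 8 and 14 members at an unadjusted p under 0.05 by edgeR against 7.68% and 13.2% of all genes, and the interaction turned to a median of 0.04 with 22 of 34 members higher. The smallest p belonged to Ifit3b, at 9.96, 6.61, 5.51, 6.74 and 7.18 CPM in hAPOE3 females and at 8.37, 6.77, 6.66, 7.59 and 6.81 CPM in hAPOE4 females, with an interaction of -0.49 (SE 0.24, 95% CI -0.98 to 0.00, unadjusted p = 0.0514 by edgeR), and the lowest value was -0.83 (SE 0.47) for Ifit1, which was -0.27 without S176.

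Averaged over the sexes, which uses all 20 mice, the APOE contrast came closest to the threshold. The log2 fold change was above 0 for 32 of 34 members, with a median of 0.29. By edgeR 0 members had an adjusted p under 0.05, where 2.45% of all genes did, and 14 had an unadjusted p under 0.05, all higher in hAPOE4, against 17.9% of all genes. DESeq2 called 3 members (Ifi27l2a, Trim30a and Usp18), where it called 3.52% of the 33073 genes it tested, with 15 members at an unadjusted p under 0.05 against 14.4% of those genes. On simulated counts with genes changed in hAPOE4 males alone, DESeq2 made more false calls than its threshold allows in the contrast of males. The averaged contrast was not simulated, so no rate of false calls is known for these 3 members. Limma-trend called 0 members and 2.14% of 21724 genes, with 16 members at an unadjusted p under 0.05 against 18.3%. Without S176 the 14 became 7, and it was 9 without any one of S145, S146, S154 and S165, against 15.6% to 18.7% of all genes in these 5 fits. Without S144 edgeR called 4 members (Gbp2, Oasl2, Trim30a and Usp18) and 3.57% of all genes. It called 1 member without S158, S168 or S175, and 2.29%, 1.95% and 2.08% of all genes.

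Ifi27l2a, a small mitochondrial protein related to Ifi27, had the smallest p. It stood at 0.402, 0.869, 0.769, 1.37 and 1.85 CPM in hAPOE3 males and at 1.59, 1.88, 5.51, 1.36 and 1.63 CPM in hAPOE4 males. In females it stood at 1.48, 0.528, 1.03, 1.86 and 1.97 CPM in hAPOE3 females and at 2.47, 3.30, 3.29, 1.95 and 1.601 CPM in hAPOE4 females. The average log2 fold change was 1.02 (SE 0.30, 95% CI 0.40 to 1.65, edgeR adjusted p = 0.0723), higher in hAPOE4 in both sexes, at 1.17 (SE 0.43) in males and 0.87 (SE 0.42) in females. Without S176 the average was 0.74 and the value in males 0.60. Trim30a, with an average of 0.51 (SE 0.15, edgeR adjusted p = 0.0723), stood at 6.18, 4.25, 3.85, 3.40 and 4.43 CPM in hAPOE3 females and at 5.96, 5.90, 6.27, 6.16 and 3.56 CPM in hAPOE4 females. Of the hAPOE4 females S168 alone was low, and S144 was as high as the others. Usp18 followed with 0.73 (SE 0.23, edgeR adjusted p = 0.0935).

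The second question was whether the sexes differed. In hAPOE3 mice 32 of 34 members were higher in females, with a median log2 fold change of 0.23. By edgeR 0 passed the adjusted threshold, where 0.0414% of all genes did, and 3 (Oas2, Trim30a and Ifi44) had an unadjusted p under 0.05 against 5.22% of all genes, with 0 called and 4 and 3 at an unadjusted p under 0.05 by DESeq2 and limma-trend, against 4.62% and 5.05% of all genes. Only Trim30a, 1 of 34, had groups without overlap, where 0.723% of all genes did. Without S144 the median was 0.07 and 0 members had an unadjusted p under 0.05, against 5 without S146 and 6 without S176. In these fits 4.21%, 3.62% and 6.14% of all genes had such a p. Oas2 had the smallest p and stood at 1.07, 0.948, 1.51, 0.918 and 2.18 CPM in hAPOE3 males and at 1.65, 1.40, 2.45, 1.86 and 2.07 CPM in hAPOE4 males. In females Oas2 stood at 3.47, 1.66, 1.54, 2.03 and 2.16 CPM in hAPOE3 females and at 2.24, 3.62, 2.75, 2.27 and 1.77 CPM in hAPOE4 females. The log2 fold change in hAPOE3 mice was 0.71 (SE 0.27, 95% CI 0.15 to 1.26, unadjusted p = 0.0153 and adjusted p = 0.805 by edgeR), and it was 0.47 without S144.

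In hAPOE4 mice the members were split, 17 higher and 17 lower in females, with a median of 0.00. By edgeR 0 passed, where 0.437% of all genes did, and 2 had an unadjusted p under 0.05 against 5.80% of all genes. By DESeq2 and limma-trend 0 were called, where 0.756% and 0.216% of all genes were. Each had 2 members at an unadjusted p under 0.05, against 5.59% and 4.84% of all genes. Groups without overlap were found for 0 members, against 0.723% of all genes. The IFIT family was lower in females for 4 of 4 members and the membrane factors were higher for 2 of 2, none at an unadjusted p under 0.05. Ifi35, whose product interacts with other interferon-induced proteins, had the smallest p and stood at 1.74, 2.19, 2.86, 2.54 and 4.02 CPM in hAPOE3 males and at 2.23, 1.70, 3.62, 2.05 and 2.90 CPM in hAPOE4 males. In females Ifi35 stood at 3.78, 1.96, 1.83, 3.40 and 3.84 CPM in hAPOE3 females and at 3.70, 4.50, 4.51, 3.21 and 2.75 CPM in hAPOE4 females. The log2 fold change was 0.58 (SE 0.26, unadjusted p = 0.0361 and adjusted p = 0.771 by edgeR), and Ifi27 had 0.53 (SE 0.24). Without S176 the median was 0.17 and 6 members had an unadjusted p under 0.05, and without S165 the median was -0.05 and 0 had. In these fits 5.6% and 4.6% of all genes had such a p.

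Averaged over the genotypes, 28 of 34 members were higher in females, with a median of 0.14. By edgeR 0 passed the adjusted threshold, where 0.129% of all genes did, and 3 (Ifih1, Oas2 and Trim30a) had an unadjusted p under 0.05 against 10.04% of all genes. By DESeq2 and limma-trend 0 were called, where 0.65% and 0.0414% of all genes were. At an unadjusted p under 0.05 they had 5 and 3 members, against 8.44% and 8.34% of all genes. Oas2 again had the smallest p, with an average log2 fold change of 0.56 (SE 0.19, edgeR adjusted p = 0.315). The median was 0.04 without S144 and 0.25 without S176, with 1 and 12 members at an unadjusted p under 0.05, against 8.85% and 8.53% of all genes.

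Markers of several other cell types differed in level between the mice. Choroid plexus markers, 12 of 12 detected, summed to 83.7 to 3341 CPM (median 132) in the hAPOE3 and 122 to 2942 CPM (median 163) in the hAPOE4 males. Among the females the sums were 80.3 to 3932 CPM (median 2728) with hAPOE3 and 104 to 6659 CPM (median 4724) with hAPOE4. The 3 mice with the highest member scores, S176, S165 and S144, had choroid plexus marker scores of 1.96, 2.89 and 2.28, and S154, the lowest, had -2.44. The 2 scores ranked the mice alike in part. Within their groups S144, S158 and S176 had the highest of both scores, and S154, S168 and S175 the lowest of both. In hAPOE4 females the highest choroid plexus score was that of S166 and the highest member score that of S165. S166 and S164 had choroid plexus scores of 2.95 and 2.33 with member scores of 0.37 and 0.14. In hAPOE3 females S145 had 0.75 with the lowest member score, -0.40, and S146 had the lowest choroid plexus score. Border macrophage markers, 7 of 7 detected, summed to 5.24 to 11.0 CPM in the hAPOE3 and 7.72 to 15.9 CPM in the hAPOE4 males, and to 5.32 to 21.6 CPM and 7.26 to 31.1 CPM in the females of the same genotypes. Microglia markers, 15 of 15 detected, summed to 494 to 615 CPM in males and 503 to 553 CPM in females. Neutrophil genes, 0 of 5 tested, summed to at most 1.83 CPM. Endothelial markers, 10 of 10 detected, had 6 higher in hAPOE4 males (median log2 fold change 0.11) and 8 in hAPOE4 females (0.27), and their sums were 234 to 324 CPM in the hAPOE3 and 243 to 330 CPM in the hAPOE4 males, against 243 to 287 and 246 to 324 CPM in females. One of them rose in the averaged APOE contrast, Kdr, a receptor for vascular endothelial growth factor, by 0.49 (edgeR adjusted p = 0.0363), where 2.45% of all genes were called. Of 8 T cell markers 5 were tested. The sums over all 8 were 4.04 to 18.6 CPM with hAPOE3 and 3.17 to 5.21 CPM with hAPOE4 in males, and 4.48 to 7.83 and 3.13 to 3.68 CPM in females. Of the 5 tested, 2 were higher in hAPOE4 males (median log2 fold change -0.33) and 1 in hAPOE4 females (-0.22). Only Cd3d, a chain of the T cell receptor complex, was called. Its log2 fold changes were -2.22 in males, -1.92 in females and -2.07 averaged, with edgeR adjusted p of 0.000213, 0.00107 and 2.17e-06. In these contrasts 0.621%, 0.667% and 2.45% of all genes were called. Red blood cell markers, 5 of 5 tested, had 0 higher in hAPOE4 in either sex and 0 called, with medians of -1.20 in males and -1.88 in females, and S144 had the highest sum of the 20 mice at 302.8 CPM. Of 8 oligodendrocyte markers 1 was higher in hAPOE4 males and 2 in hAPOE4 females, and of 8 neuron markers 4 and 2, with 0 called. The part of these cell types in the members' values was not tested.

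With the choroid plexus score as a covariate, the APOE medians stayed near their values, 0.34 in males and 0.16 in females, and the sex medians did not, at 0.01 in hAPOE3 and -0.17 in hAPOE4 mice. In that fit edgeR called Ifi27l2a and Lgals3bp in the averaged APOE contrast, at 0.89 (adjusted p = 0.0232) and 0.56 (adjusted p = 0.0313), and with them 2.97% of all genes. In females 5 of 34 members had an unadjusted p under 0.05 in it by edgeR, against 11.2% of all genes. Among them Ifitm3 had 0.55 (unadjusted p = 0.00324 by edgeR) and Bst2 0.67 (unadjusted p = 0.0112 by edgeR). With the border macrophage score, a covariate chosen after the data were seen, the APOE medians were 0.28 in males and -0.02 in females, where 12 of 34 members were then higher in hAPOE4, and 0.12 averaged over the sexes. In females 0 of 34 members had an unadjusted p under 0.05 by edgeR with the border macrophage score, against 6.95% of all genes. With the microglia score the APOE medians were 0.48 in males and 0.21 in females. These scores share libraries with the members and the covariate fits describe what moved together: the part of other cell types in the members' values was not tested. Of 7 oocyte genes tested, edgeR called 6 higher in hAPOE4 than in hAPOE3 males, where it called 0.621% of all genes. They were Nlrp5, Gdf9, Bmp15, Zar1, E330034G19Rik and AU022751. The same 6 were called lower in hAPOE4 females than in hAPOE4 males, where 0.437% of all genes were called. Among the hAPOE4 males, those with oocyte genes had member scores of -0.07 (S175), 0.77 (S176), -0.04 (S177) and -0.03 (S178), and S174, without them, had -0.03.

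**Figure D5:**
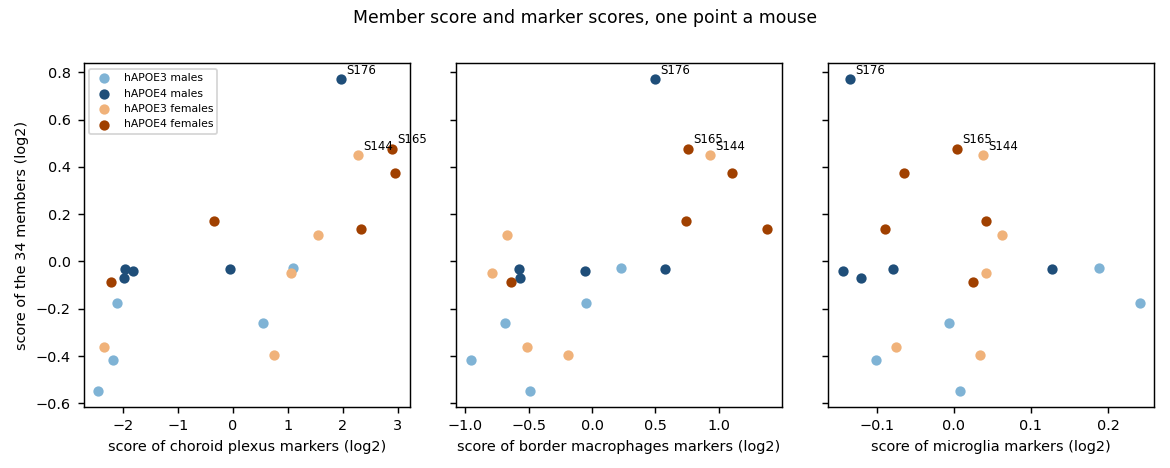
Mean centred log2 CPM of the 34 members (vertical axis) against the same score of the choroid plexus, border macrophage and microglia markers (horizontal axes), 1 point a mouse, coloured by group. S176 is at a member score of 0.77, S165 at 0.48 and S144 at 0.45, all with choroid plexus scores of 1.96 or more, while the microglia scores of all mice stay between -0.14 and 0.24. S164, at a choroid plexus score of 2.33, has a member score of 0.14.

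Within groups the members varied together. After the group means were taken away, the correlation of each member with the mean of the others over the 20 mice, given as a description, had a median of 0.72, from 0.18 for Stat2 to 0.92 for Ifit3, and 26 of 34 members exceeded 0.5 where 9.55% of all genes did. Without S144 and S176 the median was 0.55 and 20 exceeded 0.5, against 13.5% of all genes, with Ifitm3 highest at 0.90 and Ifit2 lowest at -0.46. The 10 non-members most like the members over 20 mice were Ubxn10, Fbln7, Ormdl2, Nxn, H2-K1, H2-D1, Foxj1, Pcolce2, Htr2c and Dmrt3, with r from 0.89 to 0.86. They include H2-K1 and H2-D1, heavy chains of class I histocompatibility molecules, Foxj1, a regulator of motile cilia, and Htr2c, a serotonin receptor abundant in choroid plexus. Without S144 and S176, 1 of the 10 (Dmrt3) stayed among the 10 most alike.

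The rest of the pathway was tested from lists written beside the members. Of 13 interferon ligand genes, 4 were in the table, with 6 to 55 counts summed over the 20 mice (Ifng 6, Ifna2 10, Ifnz 15 and Ifne 55), and 0 passed the filter, so no ligand difference was detectable at this depth. Of 10 receptor, kinase and STAT genes, 3 were higher in hAPOE4 males and 8 in hAPOE4 females, and 0 passed the threshold in any of the 7 comparisons. Of 14 sensing and relay genes in the table, 12 were higher in hAPOE4 males and 11 in hAPOE4 females, with 0 called.

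Among 10 negative regulators, Adar, which edits double-stranded RNA so that it escapes the sensors, was the only one called. The call came in the APOE contrast averaged over the sexes, where edgeR called 2.45% of all genes. It was at 150.2 ± 10.4 CPM with hAPOE3 and 195 ± 16.4 CPM with hAPOE4 in males, and at 147.4 ± 22.7 and 186 ± 8.58 CPM in females (SD, n = 5). The averaged log2 fold change was 0.36 (SE 0.07, edgeR adjusted p = 0.00543), and hAPOE4 and hAPOE3 did not overlap in either sex. The same held in males for 1.44% and in females for 3.27% of all genes. Of 68 other interferon-stimulated genes tested, 53 were higher in hAPOE4 males and 44 in hAPOE4 females, with medians of 0.23 and 0.06. In the averaged contrast edgeR called 1 of the 68, where it called 2.45% of all genes. The gene was Irgm1, an immunity-related GTPase of autophagy, with a log2 fold change of 0.35 (SE 0.09, edgeR adjusted p = 0.0415). Its mean was 9.76 ± 0.899 CPM with hAPOE3 and 13.2 ± 2.31 CPM with hAPOE4 in males, and 10.9 ± 1.49 and 13.2 ± 1.61 CPM in females. Irgm1 passed without any one of 7 mice and missed the threshold without any one of the other 13.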

How the data were processed

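Poly(A) RNA from the hippocampus of 20 mice was sequenced as paired 75-base reads. Per the study's methods, the authors quantified mouse Ensembl transcripts with Salmon 0.91 and summed them to genes, which gave the deposited counts, whole estimated counts per gene and mouse. The authors also deposited a signal of normalized counts, the same counts divided by DESeq2 factors per gene and mouse, used here only as an alternative. Strandedness is not given in the sources used here.

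The counts were analysed with edgeR 4.0.16 in R 4.3.3 (TMM scaling, filterByExpr by group, quasi-likelihood test, 1 mean per group, all 20 mice in 1 fit). The 7 contrasts were adjusted by Benjamini-Hochberg over the 21724 genes that passed, at a threshold of 0.05. Log2 CPM used a prior count of 2. Marker and member scores are means of log2 CPM, centred per gene. DESeq2 1.42.0, limma-trend 3.58.1 (log2 of the normalized count + 1), other scaling and filters, fits of the compared groups alone, marker scores as covariates and leaving out each mouse were alternatives, and the count tests were tested on simulated data. The simulation changed genes in hAPOE4 males alone and scored the contrast of hAPOE4 against hAPOE3 males. There DESeq2, used as an alternative only, made more false calls than its threshold allows. Each mouse entered as 1 replicate, and every pair of libraries differed by more than counting noise (smallest chi-square per degree of freedom 9.16 over 190 pairs).

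The members, the pathway lists and the marker lists were chosen with earlier results of these data known. Values in every mouse were given for members past the threshold, for the member of highest mean CPM in each of 10 role groups and for the member of smallest p in each contrast, and for other members that a result turned on, among them those at an end of a range. Genes of other lists were named if past the threshold, and up to 10 non-members by likeness to the members. Total counts of 35778879 to 52520279 per mouse left the lowest members at 14 counts in a mouse. Intervals come from the edgeR fit.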

Additional observations from a re-analysis of the deposited data

Results flagged for a closer look

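Dixon's criterion for a value that stands apart in its group of 5 mice was met 11 times in the 136 groups examined (34 members in 4 groups), where chance alone would give about 6.8 at 1 in 20. The values came from 3 mice. The members varied together within groups, so the flags were not independent, and no excess over chance can be read from their number.

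S176 was the high value among hAPOE4 males in 7 of the 11. Its CPM was 33.96 for Ifit3 (13.8 to 16.0 in the other 4 mice), 12.9 for Ifit3b (7.43 to 8.54) and 15.9 for Oasl2 (6.63 to 8.07). It was also 8.29 for Irf7 (2.71 to 3.27), 13.6 for Bst2 (2.81 to 4.15), 5.51 for Ifi27l2a (1.36 to 1.88) and 70.9 for Lgals3bp (15.2 to 21.7). In the same library the choroid plexus markers summed to 2942 CPM, the highest of its group, and the border macrophage markers to 15.9 CPM. The oligodendrocyte markers summed to 9698 CPM (4672 to 6537 in the other hAPOE4 males), the neuron markers to 6263 CPM (7527 to 9994) and the hippocampal neuron markers to 615 CPM, where S178 was lower at 558 CPM. Their part in the members' values was not tested.

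S156 was the high value among hAPOE3 males for Gbp2, at 5.21 CPM (2.89 to 3.32 in the others), and for Ifit1, at 5.09 CPM (3.16 to 3.61). S168 was the low value among hAPOE4 females for Ifih1, at 4.68 CPM (7.07 to 7.95), and for Trim30a, at 3.56 CPM (5.90 to 6.27). S168 also had the lowest choroid plexus sum of its group, at 104 CPM, and the lowest border macrophage sum, at 7.26 CPM.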

How the results depend on the processing

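In 6 of the 7 contrasts 0 members were called by edgeR, DESeq2 or limma-trend in every setting run, leaving out each mouse included. In the APOE contrast averaged over the sexes, edgeR called 0 and DESeq2 3 (Ifi27l2a, Trim30a and Usp18), and edgeR called 2 with the choroid plexus score as a covariate (Ifi27l2a and Lgals3bp), 3 with the hippocampal neuron score (Ifi27l2a, Trim30a and Lgals3bp), 4 without S144 and S176 (Ifit1, Oasl2, Usp18 and Trim30a) and 0 to 4 with each mouse left out in turn. Of all genes, 2.97% were called with the choroid plexus score, 4.12% with the hippocampal neuron score and 2.52% without S144 and S176. The hippocampal neuron and border macrophage scores and the removal of S144 and S176 together were added after the data were seen. In males Bst2 ran from -0.027 to 0.76 over the mice left out, turning negative without S176 and, at -0.027, without S144 and S176. In females Trim30a was -0.0082 with the border macrophage score. Irgm1 lost its call in the averaged APOE contrast under limma-trend, with the microglia and border macrophage scores and without 13 of 20 mice (edgeR adjusted p from 0.0204 to 0.0901), while Adar kept it without each mouse (0.00381 to 0.0177). The cause was not tested. Over 38 gene results, 1129 of 1164 values under alternatives kept their direction and their side of the threshold, 16 gained a call, 16 lost one and 3 turned. All 16 losses were of Irgm1, and results other than Irgm1 and Adar had no call to lose. This count does not cover size: Lgals3bp in males, at 0.81, was 0.12 without S176 and counts as kept. In the averaged APOE contrast DESeq2 called 1163 of 33073 genes (3.52%) and edgeR 532 of 21724 (2.45%). No paired analysis was possible because no label ties a mouse of one group to one of another. With 5 mice a group, and 15 of 34 members below 5 CPM, a missing call does not show equal levels.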
